A study of Mus musculus with 4 samples.

Results

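The energy metabolism isozymes of male germ cells were taken as 10 gene symbols, namely Aldoart1, Aldoart2, Gapdhs, Pgk2, Ldhc, Gk2, Gykl1, Pdha2, Cox6b2 and Cyct. All 10 were among the 22311 gene symbols in the deposited tables, each as a single entry, and all 10 passed the filter on low values, so none was left out. RNA was sequenced from whole testes of 24-day-old male mice, with 2 samples of Rfx2-/- mutants (mutant 1 and mutant 2) and 2 control samples (control 1 and control 2). Rfx2 encodes a transcription factor, and the mutant allele carries a neomycin-resistance cassette where exons 6 and 7 for its DNA-binding region had been. The line goes back to 1 targeted embryonic stem cell clone. The labels call the controls wild type and the strain DBA, whereas the study's methods describe heterozygous controls and a mixed background of 129/s6 and C57BL/6. Both groups are conventional animals without a cell type-specific deletion, and the 2 samples of a genotype were described as biological replicates.

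In most tissues the steps of glycolysis and of pyruvate oxidation are run by enzymes encoded in part on the X chromosome. The X chromosome is silenced in meiotic spermatocytes, and germ cells use autosomal isozymes from that stage on, several of which arose as retroposed copies of the spliced mRNA of the parent gene. Ldhc, Cyct, Pdha2 and Pgk2 are known to be switched on in meiotic spermatocytes, whereas Gapdhs and the aldolase copies are known from spermatids, where glycolytic enzymes are built into the fibrous sheath of the sperm tail and feed motility.

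In the annotation of the files' genome build (NCBIM37, mm9), of the 10 genes 6 had a single exon (Aldoart1, Aldoart2, Pgk2, Gk2, Gykl1 and Pdha2) and 4 had several (Ldhc, Gapdhs, Cox6b2 and Cyct). None of the 10 lay on the X chromosome, against 3 of 11 counterparts from other tissues (Pgk1, Pdha1 and Gyk). Aldoart1 lies on chr4:72511755-72513668 (minus strand), Aldoart2 on chr12:56666226-56667883 (plus strand), Pgk2 on chr17:40343963-40345554 (minus strand), Gk2 on chr5:97884180-97886027 (minus strand) and Pdha2 on chr3:140872968-140875319 (minus strand). Ldhc, with 8 exons, lies on chr7:54116573-54133512 (plus strand), and Ldha begins on the same strand at 54096845. Gapdhs, with 11 exons, lies on chr7:31514799-31528700 (minus strand), Cox6b2, with 4 exons, on chr7:4703396-4704696 (minus strand) and Cyct, with 4 exons, on chr2:76191999-76198507 (minus strand).

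The coding sequences differ from those of the counterparts to a degree that bears on how far reads can be told apart. The first 120 coding bases of the aldolases are shown because the largest change fell in this family, and those of phosphoglycerate kinase because Pgk2 is a copy that has diverged much further. Sequences run 5′ to 3′ from the start codon, and capitals mark the bases of a testis copy that differ from the widely expressed gene above it.
Aldoa: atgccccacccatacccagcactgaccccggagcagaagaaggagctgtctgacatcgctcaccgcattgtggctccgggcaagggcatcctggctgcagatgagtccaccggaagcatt
Aldoart1: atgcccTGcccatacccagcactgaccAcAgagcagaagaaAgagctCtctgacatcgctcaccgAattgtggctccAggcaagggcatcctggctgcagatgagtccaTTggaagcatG
Aldoart2: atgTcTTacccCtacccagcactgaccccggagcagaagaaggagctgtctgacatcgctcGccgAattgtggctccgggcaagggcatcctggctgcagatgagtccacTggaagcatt
Pgk1: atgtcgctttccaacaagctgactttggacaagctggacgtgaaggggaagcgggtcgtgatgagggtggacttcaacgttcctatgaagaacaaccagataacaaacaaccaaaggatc
Pgk2: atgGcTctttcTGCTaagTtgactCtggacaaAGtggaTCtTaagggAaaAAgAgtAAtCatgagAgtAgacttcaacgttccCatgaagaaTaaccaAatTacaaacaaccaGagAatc
In this stretch Aldoart1 differed from Aldoa at 11 bases, Aldoart2 at 7, and Pgk2 from Pgk1 at 28. Over the whole coding sequence, identity with the counterpart was 94.2% for Aldoart1 and 91.6% for Aldoart2, with shared runs of up to 86 and 49 bases. For the other isozymes it ran from 64.6% for Cox6b2 against Cox6b1 to 82.6% for Gykl1 against Gyk. The longest shared run of these was 76 bases, between Gk2 and Gyk. Neither the read length nor the handling of reads that match several genes was given in the sources used here, so the split of reads among Aldoa, Aldoart1 and Aldoart2 is uncertain.

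The authors deposited FPKM, that is fragments scaled by transcript length and by the mapped fragments of the sample, with a confidence interval for each gene. The files hold no counts. If the bounds lie 2 SD of a Poisson count from the FPKM, their widths correspond to about 17100000 to 20300000 fragments per sample. This sum is over genes with 1 entry and a lower bound above 0. It is not the full depth, which the study gives in reads. The intervals cover counting error within a library only. The genotypes were compared on the log2(FPKM + 1) scale with limma, over the 12985 genes that reached 1 FPKM in 2 or more samples. Rfx2 itself had FPKM of 36.7 and 39.8 in mutants versus 123 and 89.4 in controls (log2 fold change -1.43, standard error 0.19, adjusted p = 0.00617). Of the 12985 genes, 2.52% had a lower and 0.308% a higher level in mutants past an adjusted p of 0.05.

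Of the 10 isozyme genes, 1 was called lower in mutant testes and none was called higher. The gene was Aldoart1, and 4 of the 10 (Aldoart1, Gykl1, Gk2 and Pgk2) were lower at an unadjusted p under 0.05, against 6.68% of all genes tested, and none was higher at that level, against 2.01%. A log2 fold change of -0.5 or lower was found for 5 of the 10 and for 8.24% of all genes tested. The log2 fold changes of the 10 ran from -1.37 to 0.06 with a median of -0.32, whereas the median over all genes tested was 0.032. In 5 of the 10 genes each mutant value was under each control value, with the reverse in none, and over all genes tested these shares were 15.2% and 16.3%. The 5 genes were Aldoart1, Aldoart2, Pgk2, Gk2 and Gykl1, all of which have a single exon. In bulk testis RNA, fewer cells of a type and less RNA per cell cannot be told apart.

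**Figure D1:**
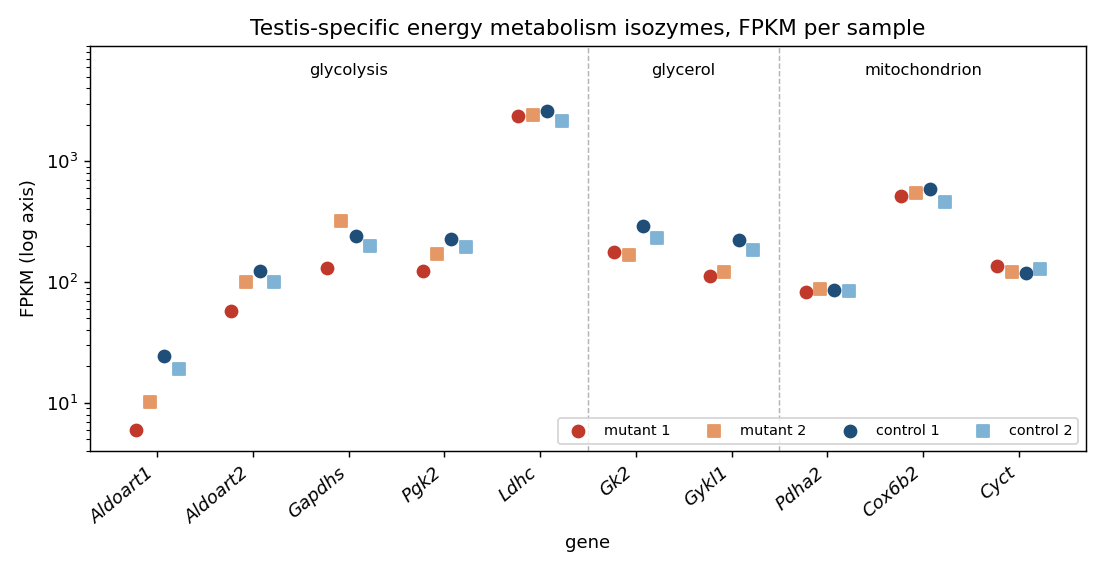
FPKM (log axis) of the 10 isozyme genes in each of the 4 samples, ordered by role; red and orange points are the mutant samples, dark and light blue points the control samples. The mutant points lie below both control points for Aldoart1, Aldoart2, Pgk2, Gk2 and Gykl1, by the least for Aldoart2 in mutant 2 (99.1 against 99.5), and mix with them for the other 5 genes.

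Transcripts of late germ cells differed between the samples, most of all between the mutants. The summed FPKM of 10 elongating spermatid markers was 1980 in mutant 1 and 7442 in mutant 2, against 8891 and 6099 in the control samples. Relative to the control mean, the median of this list on the log2 scale was -1.26 in mutant 1 and 0.13 in mutant 2. Both mutant samples lay below both controls for 2 of the 10, Tnp1 and Prm1, against 15.2% of all genes tested. These 2 were named after their values were seen, and in mutant 2 they stood at -0.36 and -0.33. The other 8 overlapped with the controls and ran in mutant 2 from -0.18 (Prm2) to 0.85 (Hmgb4). The summed FPKM of 10 round spermatid markers was 657 in mutant 1 and 1154 in mutant 2, against 1052 and 891, with medians of -0.75 and 0.24. For 10 spermatocyte markers the sums were 1085 and 931 against 868 and 984, with medians of 0.24 and -0.05. RNA of all 30 markers was found in each library, none being at 0, and none passed the test. The study's histology found elongating spermatids missing from mutant testes at later ages, and at the age sequenced here it described abundant round spermatids in both genotypes. Its RT-PCR showed no difference for Tnp1, Tnp2, Prm1 and Prm2. It also stained TNP1 protein in detached, degenerating mutant spermatids. RNA of the elongating spermatid list does not by itself show that cells of the stage were present. In some mutant animals the study described delayed spermatogenesis at an earlier age, with fewer round spermatids. Mutant 1 stood apart here by low spermatid transcripts, and whether it was such an animal was not tested. The values of each mutant sample are given separately below, and the part of this difference in the results was not tested. The medians of the Sertoli cell markers were 0.24 and 0.00 and those of the Leydig cell markers 0.37 and -0.06 in mutant 1 and 2. In control 1 and 2 they were -0.25 and 0.25 for Sertoli cells and 0.29 and -0.29 for Leydig cells. The controls thus also differed from each other in these lists.

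Aldolase splits fructose 1,6-bisphosphate, and Aldoart1 and Aldoart2 are copies of Aldoa expressed in the male germ line. The FPKM of Aldoart1 was 5.94 (mutant 1) and 10.1 (mutant 2) compared with 24.5 (control 1) and 19.1 (control 2). The highest mutant value was thus well below the lowest control value, and the deposited confidence interval of control 2 (17.9 to 20.2) reached neither mutant value. The widths of the intervals correspond to 331 and 479 fragments in mutants versus 1303 and 1075 in controls. The mutant mean was 36.8% of the control mean. This gave a log2 fold change of -1.37 (standard error 0.26) that exceeded the replicate spread in limma (Benjamini-Hochberg adjusted p = 0.0343). Relative to the control mean it was -1.70 in mutant 1 and -1.03 in mutant 2. Over all alternatives the log2 fold change ran from -1.70 (without mutant 2) to -1.03 (without mutant 1). The call was lost with median-ratio scaling (adjusted p = 0.174 in limma), quantile normalization (0.146), no filter (0.179) and a filter at an FPKM of 5 (0.0557). It was also lost without control 1 and without control 2, fits that leave 1 control sample.

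Aldoart2 had FPKM of 57.9 in mutant 1 and 99.1 in mutant 2, against 124 and 99.5 in the control samples. Mutant 1 was clearly the lowest of the samples, and mutant 2 lay just under control 2. Its log2 fold change of -0.55 with its standard error of 0.26 (adjusted p = 0.691) did not pass the test. Without mutant 2 the log2 fold change was -0.93 (adjusted p = 0.00221, with the lone mutant sample assumed to vary like the others), and without mutant 1 it was -0.17 (adjusted p = 1.0). The parent gene Aldoa, which encodes the aldolase of muscle and most other tissues, had FPKM of 156 and 207 in mutants versus 163 and 159 in controls (log2 fold change 0.16, adjusted p = 1.0). Aldoart1 and Aldoart2 together held 29.1% and 34.5% of the FPKM of these 3 aldolase genes in mutants versus 47.8% and 42.7% in controls. The groups did not overlap in this share (exact two-sided permutation test, p = 0.333, the smallest that 2 against 2 samples can give).

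Further along the pathway, Gapdhs encodes the glyceraldehyde-3-phosphate dehydrogenase of the sperm tail. Its FPKM was 130 in mutant 1 and 318 in mutant 2, against 242 and 200 in the control samples. The mutant samples flanked the controls, mutant 1 being the lowest and mutant 2 the highest of the 4. With a standard error of 0.37, the log2 fold change was -0.11 (adjusted p = 1.0), and it was -0.76 for mutant 1 and 0.53 for mutant 2 against the control mean. The log2 difference between the mutant samples was -1.29, whereas the standard deviation of this difference over all genes tested was 0.468. Of the 10 genes, Gapdhs differed most between the mutant samples, and it did so in the direction of the round and elongating spermatid markers. Aldoart2 (-0.77), Aldoart1 (-0.67) and Pgk2 (-0.46) also differed in that direction, whereas Gk2 (0.08) and Cyct (0.15) differed the other way. Gapdh, the enzyme of other cells, had 49.1 and 39.3 FPKM in mutants versus 37.4 and 47.2 FPKM in controls. The ratio of Gapdhs to Gapdh was 2.65 in mutant 1, 8.11 in mutant 2, 6.48 in control 1 and 4.23 in control 2.

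Pgk2 encodes the phosphoglycerate kinase that takes over from the X-linked Pgk1 in meiotic and later germ cells. Its FPKM was 123 (mutant 1) and 169 (mutant 2) compared with 225 (control 1) and 195 (control 2). Both mutant samples lay below both controls, mutant 1 further than mutant 2 (-0.76 and -0.31 on the log2 scale). The log2 fold change of -0.53 (standard error 0.21) had an unadjusted p of 0.0341 and an adjusted p of 0.453 in limma, and so did not pass the test. Pgk1 was found at 3.84 and 3.74 FPKM in mutants versus 2.93 and 4.39 FPKM in controls. Pgk2 thus made up between 97.0% and 98.7% of phosphoglycerate kinase FPKM in every sample.

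Ldhc encodes the germ cell lactate dehydrogenase and had the highest level of the 10 genes, ranking between 2 and 4 of all genes by FPKM in each sample. Its FPKM was 2379 and 2426 in mutants versus 2602 and 2155 in controls. The mutant values lay between the control values, and the log2 fold change was 0.02 with a standard error of 0.31 (adjusted p = 1.0). Ldha had 318 and 355 FPKM in mutants versus 391 and 328 FPKM in controls. The share of Ldhc in the FPKM of Ldha, Ldhb and Ldhc was 86.2% and 85.7% in mutants versus 85.7% and 84.8% in controls.

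Glycerol kinase makes glycerol 3-phosphate, and Gk2 and Gykl1 encode related testis proteins that mouse mutants have linked to the mitochondrial sheath of sperm. Gk2 had FPKM of 176 and 166 in mutants versus 292 and 233 in controls. Gykl1 had FPKM of 112 and 122 in mutants versus 221 and 185 in controls. For both genes the mutant samples were close to each other and clearly below the controls, the mutant mean being 65.2% of the control mean for Gk2 and 57.6% for Gykl1. In limma the log2 fold change was -0.60 for Gk2 (standard error 0.19, unadjusted p = 0.0135, adjusted p = 0.247). It was -0.79 for Gykl1 (standard error 0.18, unadjusted p = 0.00237, adjusted p = 0.0732 from limma), just above the threshold. These genes differed from Pgk2 and Aldoart2 in that mutant 1 and mutant 2 gave like values, -0.56 and -0.65 for Gk2 and -0.84 and -0.73 for Gykl1 relative to the control mean. Over 15 alternatives the adjusted p of Gykl1 ran from 0.0151 (robust eBayes) to 0.343 (without control 1), and it was under 0.05 in 3 of them.
The X-linked parent gene, listed as Gyk, had 0.403 and 0.368 FPKM in mutants versus 0.193 and 0.423 FPKM in controls. It lay under the filter and was not tested, and the interval widths correspond to between 22 and 38 fragments. Gk2 and Gykl1 together made up at least 99.9% of the FPKM of these 3 genes in each sample.

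**Figure D2:**
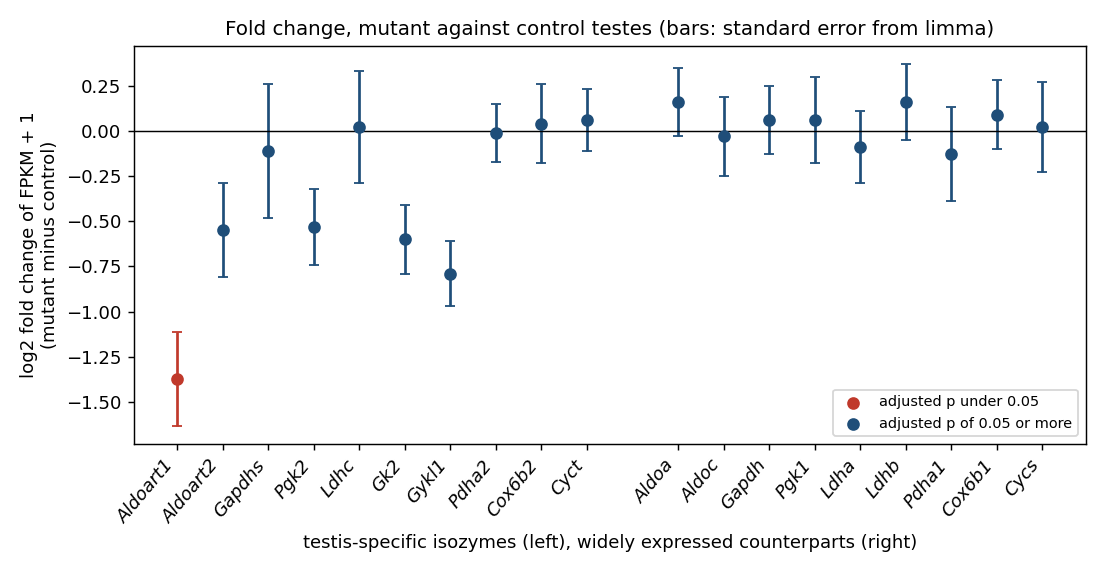
Log2 fold change of FPKM + 1 (mutant minus control) from limma for the 10 isozymes on the left and the 9 tested counterparts on the right; points are estimates over 2 against 2 samples, bars are standard errors, and red marks an adjusted p under 0.05. Aldoart1 at -1.37 is the only red point, and the counterparts lie between -0.13 and 0.16.

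In the 3 mitochondrial isozymes the mutant and control values overlapped. Pdha2 encodes the E1 alpha subunit of pyruvate dehydrogenase, which passes pyruvate to the citric acid cycle. Its FPKM was 82.5 and 87.3 in mutants versus 85.9 and 84.6 in controls, so that the mutant mean was 99.6% of the control mean. The log2 fold change was -0.01 with a standard error of 0.16 (adjusted p = 1.0). It is the sole gene with a single exon among the 10 whose groups overlapped.
Cox6b2 encodes a testis form of subunit VIb of cytochrome c oxidase. Its FPKM was 519 and 541 in mutants versus 584 and 457 in controls (log2 fold change 0.04, standard error 0.22, adjusted p = 1.0). Cyct encodes the testis form of cytochrome c, the electron carrier that feeds this oxidase. It had 135 and 122 FPKM in mutants versus 118 and 129 FPKM in controls (log2 fold change 0.06, standard error 0.17, adjusted p = 1.0).

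Levels of the 10 genes can be set side by side because FPKM is per length. In control testes Ldhc was highest, with a mean FPKM of 2378 ± 316 (SD, n = 2), followed by Cox6b2 with 520 ± 90.3. Gk2 (262 ± 42.0), Gapdhs (221 ± 30.0), Pgk2 (210 ± 21.2) and Gykl1 (203 ± 25.5) came next, and the ranges of neighbours in this order overlapped. Cyct (123 ± 7.38) and Aldoart2 (112 ± 17.6) did not differ beyond their spread either. Pdha2 (85.2 ± 0.894) and Aldoart1 (21.8 ± 3.83) were lowest, each below the range of the gene before it. In both mutant samples Ldhc (2402 ± 32.8) and Cox6b2 (530 ± 15.6) were again highest and Aldoart1 (8.0 ± 2.92) lowest. Gapdhs (224 ± 133) came next after Cox6b2 in mutant 2, whereas in mutant 1 it lay below Gk2 and Cyct. The 10 genes together made up 1.03% and 1.06% of all FPKM in mutants versus 1.16% and 1.04% in controls.

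The 9 tested counterparts gave no call in either direction in limma, also none at an unadjusted p under 0.05. Their log2 fold changes ran from -0.13 for Pdha1 to 0.16, with a median of 0.06. The groups overlapped for all 9 genes, whereas over all genes tested 15.2% lay below and 16.3% above without overlap. The testis form held most of the FPKM in every sample for pyruvate dehydrogenase E1 alpha (95.1% to 97.1%), cytochrome c (92.1% to 94.1%) and Cox6b (85.9% to 90.2%).

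**Figure D3:**
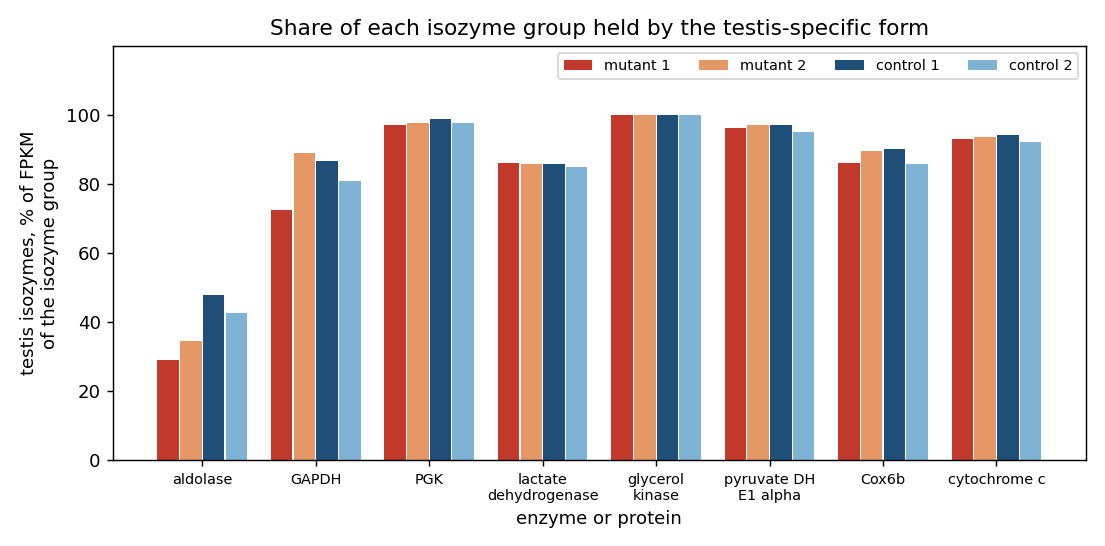
Share of FPKM held by the testis-specific form or forms within each of 8 isozyme groups, in percent, 1 bar per sample starting at 0. Aldolase is the group with the lowest share, 29.1% and 34.5% in mutant and 47.8% and 42.7% in control testes; in the GAPDH group mutant 1 is lowest at 72.6%.

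Fold changes of the isozymes with a single exon ran lower, apart from Pdha2, than those of the isozymes with several. The 6 genes with a single exon had a median log2 fold change of -0.58, from -1.37 to -0.01, and both mutant samples lay below both controls in 5 of them. The 4 genes with several exons had a median of 0.03, from -0.11 to 0.06, and none of them showed such a separation. Over all genes tested, both mutant samples lay below both controls in 15.2%. The split by exons was not a planned comparison, and other genes with a single exon were not examined. This is a description of 10 genes and was not tested.

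**Figure D4:**
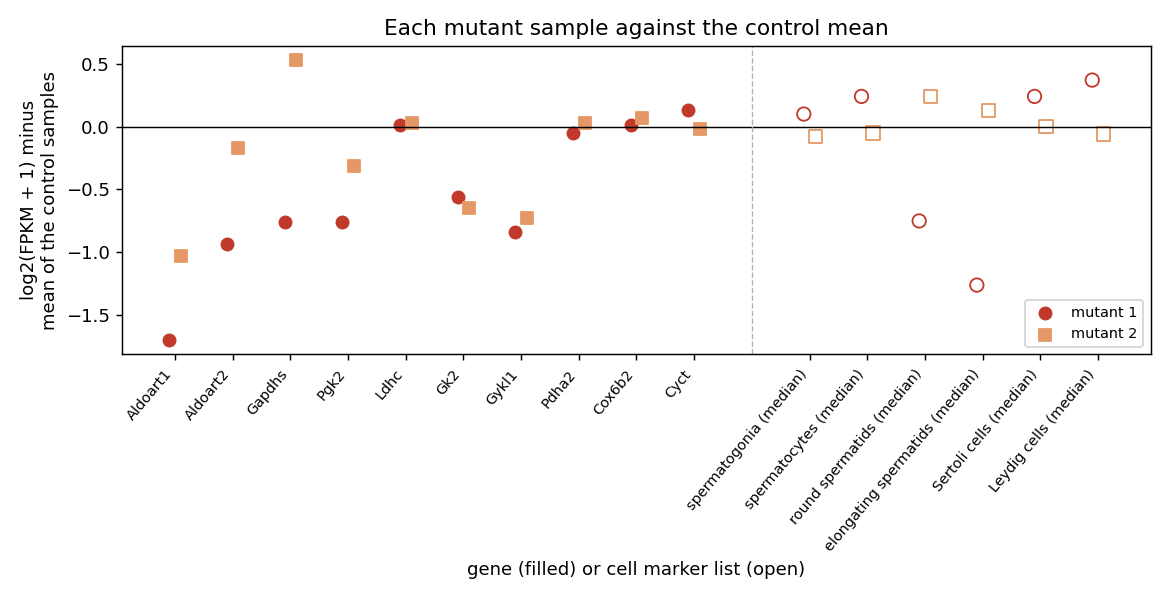
Log2(FPKM + 1) of mutant 1 (red circles) and mutant 2 (orange squares) minus the mean of the 2 control samples, for the 10 isozymes (filled) and as the median of each cell marker list (open). Gk2, Gykl1 and Aldoart1 are low in both mutant samples, whereas Gapdhs follows the spermatid lists, at -0.76 in mutant 1 and 0.53 in mutant 2. Aldoart1, Aldoart2 and Pgk2 also lie lower in mutant 1 than in mutant 2.

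The other genes of the pathway were taken as 5 lists of 63 genes, of which 55 were tested. In limma none of the 55 was called lower or higher, and at an unadjusted p under 0.05 there was 1 lower and 1 higher. Their median log2 fold change was 0.05. Both mutant samples lay below both controls for 9 of the 55 genes and above them for 11, near the 15.2% and 16.3% found over all genes tested. Of 14 tested glycolysis genes, 6 lay below and 1 above, with a median of -0.09; the shares over all genes tested were again 15.2% and 16.3%. The gene with the lowest unadjusted p was Eno4, a sperm enolase named here after its values were seen. It had FPKM of 11.9 and 14.4 in mutants versus 24.6 and 20.5 in controls (log2 fold change -0.74, standard error 0.19, unadjusted p = 0.00533, adjusted p = 0.130 from limma). Hk1, the hexokinase that also has a germ cell form, had 61.4 and 131 FPKM in mutants versus 164 and 133 FPKM in controls (adjusted p = 0.654), mutant 1 being far below the other 3 samples; it too was named after its values were seen.
The 9 tested genes of the pyruvate dehydrogenase complex and its regulators had a median of -0.01, from -0.33 to 0.17. The 12 genes of sugar, lactate and glycerol supply had a median of 0.03, from -0.57 to 0.20. The 5 other testis-biased energy genes (Ldhal6b, Slc25a31, Cox7b2, Cox8c and Vdac3) had a median of 0.06, from -0.18 to 0.12. The 15 tested genes of cytochrome c oxidase and electron transfer had a median of 0.16, from -0.07 to 0.43. In 5 of these 15 both mutant samples lay above both controls and in none below, beside 16.3% above and 15.2% below over all genes tested. The largest value of this list was that of Cox8a, a subunit of cytochrome c oxidase named after its values were seen (log2 fold change 0.43, adjusted p = 0.385 from limma).

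RFX proteins bind the X-box, a motif of a left and a right arm with a gap of 0 to 3 bases. It was searched on both strands within 1000 bases of the annotated start of each gene in NCBIM37 (mm9), because Rfx2 was the gene deleted. An X-box without mismatch was found for 2 of the 10 isozyme genes, Aldoart1 and Pgk2, and for 4.6% of the 12620 tested genes whose symbol matched a single annotated gene. The 2 sites are shown with the motif in capitals and 7 flanking bases on each side.
Aldoart1: aggcaagGTGACCCATGGCAACgcacagg
Pgk2: caaacttGTCACCAGTAACaaagtca
The Aldoart1 site lies at chr4:72513596-72513610 on the strand of the gene, 58 to 72 bases after its start and within its 5′ UTR. The Pgk2 site lies at chr17:40344611-40344622 on the strand opposite to the gene, 932 to 943 bases after its start and within its coding sequence. Of the counterparts searched, Ldha, whose log2 fold change was -0.09, also had an X-box without mismatch, at positions -531 to -517 relative to its start. With 1 mismatch allowed, 4 of the 10 genes and 48.0% of the tested genes had a match. The cAMP-response element TGACGTCA, whose letters read the same on both strands and which CREM can bind in spermatids, was found within this window in none of the 10 genes and in 5.30% of the tested genes. A match or its absence describes these letters only, not binding.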

How the data were processed

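RNA-seq of 4 whole testis samples at postnatal day 24 was used. The authors aligned reads to mm9 with TopHat2 2.0.6 (per the labels) and assembled transcripts with Cufflinks, and they deposited FPKM for each gene with confidence bounds, normalized by gene length and depth within a sample. The lists from Cuffdiff were not used. Entries with one symbol were summed (22553 to 22563 entries, 22311 genes). log2(FPKM + 1) was compared in limma 3.58.1 under R 4.3.3 (lmFit, eBayes with trend, two-sided, Benjamini-Hochberg over 12985 genes, threshold 0.05). On simulated data for this comparison (12985 genes, 200 changed), 34.1% of genes changed 4-fold, 0 of those changed 2-fold and 0 unchanged genes were called. Each simulated gene was given its own spread as estimated from these 4 samples. That estimate is itself uncertain, so these shares do not give the power on the real data. Tables, alignments and figures used python 3.11.15, pandas 2.3.3, scipy 1.17.1, biopython 1.88 and matplotlib 3.10.9. Coding sequences, loci and starts came from GENCODE vM1 on NCBIM37.

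The isozyme genes, the gene lists and the tests were chosen with earlier results of these data known. The genes named were the isozymes, their counterparts, Rfx2 and list genes past the threshold, with exceptions marked. The marker lists, including spermatogonia (median log2 fold change 0.07) and macrophages (-0.17), described sample make-up only, and Rhox5 was not found under that symbol. The values of 1 counterpart are not reported here. Alternatives were other pseudocounts, filters, scalings and variance models, a replicate block, the highest entry per symbol and leaving out each sample. The crossed block was chosen after seeing the data.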

Additional observations from a re-analysis of the deposited data

How the results depend on the processing

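The 10 isozyme genes gave 150 log2 fold changes under 15 alternatives, of which 11 changed sign, all in genes with an adjusted p of 1.0. The number of isozymes called lower was 1 and became 0 without a filter, with a filter at 5 FPKM, with median-ratio scaling and with quantile normalization, and 2 with robust eBayes (Aldoart1 and Gykl1). Leaving out 1 replicate gave 0 to 3 such genes (0 without either control, 3 without mutant 2) and a median log2 fold change of the isozymes from -0.66 (without mutant 2) to -0.09 (without mutant 1). Over all genes, 327 lower and 40 higher became 199 and 17 without a filter, 202 and 17 with a filter at 5 FPKM, and 206 and 16 with median-ratio scaling, and higher genes became 67 with robust eBayes. Leaving out 1 replicate gave 167 (without control 1) to 948 (without mutant 2) lower and 13 (without control 2) to 162 (without mutant 1) higher genes. Among the pathway lists, 1 gene was called lower without a filter (Cox8b), 1 with robust eBayes (Eno4) and 0 to 4 on leaving out a replicate (4 without mutant 2). The causes were not tested. The log2 fold change of Ldhc was -1.4e-05 with median-ratio scaling and -0.19 with quantile normalization, and that of Pdha2 was 0.0032 with quantile normalization. On leaving out a replicate it ran from -0.12 to 0.16 for Ldhc, from -0.76 to 0.53 for Gapdhs, from -0.046 to 0.034 for Pdha2, from -0.14 to 0.21 for Cox6b2 and from -0.019 to 0.13 for Cyct. With 1 mismatch, 4 isozyme genes had an X-box.
Replicate numbers 1 and 2 recur in both genotypes, and across genes mutant and control deviations of one number correlated at -0.15. With 2 samples per genotype this correlation cannot decide whether samples of one number were handled together. With the replicate block, 2 isozymes, 525 lower and 70 higher genes were called; with the crossed pairing, 1, 266 and 28. Both fits leave 1 residual degree of freedom. At 2 samples per genotype a gene that is not called was not shown to be unchanged.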
